A study of Arabidopsis thaliana with 12 samples.

Results

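In 5-week-old Arabidopsis leaves that had met no stress, constitutive expression of the heat shock transcription factor HSFA1b was accompanied by high transcript levels of heat shock proteins. All 15 small heat shock proteins examined rose, from 14.1-fold to 1172-fold in mean FPKM, and HSP101, HSP90.1, 3 members of the HSP70 family and several co-chaperones rose by a log2 fold change of more than 3. The comparison set 3 libraries of 35S:HSFA1b plants kept without stress (NS) against 3 libraries of WT plants kept NS, which are 6 of the 12 libraries of the series. These 6 were chosen by genotype and treatment, without use of any measured value.

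35S:HSFA1b NS plants carried 35S:HSFA1b-RFP, a fusion of HSFA1b to a red fluorescent protein, in the Columbia 0 (Col-0) ecotype, and they were 5 weeks old and grown at 23 °C. WT NS plants were Col-0 of the same age, kept in the same conditions and without the transgene. The promoter of the fusion is the 35S promoter of cauliflower mosaic virus, which is active in most plant cells at all times, so the factor was not confined to a tissue or a period. Only 1 transgenic line is named, and effects of its insertion site or of the red fluorescent protein cannot be told apart from effects of the factor. The other 6 libraries are 35S:HSFA1b and WT plants of the same kinds after 30 min at 37 °C (HS), and they are used here only where named. Every library is labelled as leaves, and nothing in the labels states how many plants went into a library, so p-values measure only the spread between these samples.

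Heat shock factors are transcription factors that bind heat shock elements, which are inverted repeats of the bases GAA and TTC, in the promoters of chaperone genes. In unstressed cells, members of the A1 class such as HSFA1b are held inactive by cytosolic chaperones, and heat releases them to start the transcription of heat shock proteins and of further heat shock factors. Small heat shock proteins keep unfolded proteins from aggregating, HSP70 and HSP90 refold or hold them, and HSP101 pulls aggregates apart.

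Expression was given as FPKM, a count of sequenced fragments scaled by transcript length and by library size, with 1 value per locus and column. Of 33557 loci, 17710 averaged at least 1 FPKM over 9 columns, those of 35S:HSFA1b NS, WT HS and WT NS, and these were tested with limma on log2(FPKM + 0.01). Where columns are at or near 0, the size of a log2 fold change depends on the 0.01 added. Genes with an adjusted p (Benjamini-Hochberg) of 0.05 or less are called DEGs, and log2 fold changes are 35S:HSFA1b over WT throughout. The columns of a group are numbered 0 to 2 in the table and the libraries 1 to 3 in the labels, and no source links the numbers. The library identifiers in the labels begin with 720 for 2 of the 3 35S:HSFA1b NS libraries and with another number for the third and for all 3 WT NS libraries. What this number stands for is not given, and since no column could be matched to a library, results are given for each column by its own number.

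HSFA1b itself checks the labels. HSFA1b (AT5G16820) (chr5:5530195-5532889) had 429.6, 462 and 624 FPKM in the 35S:HSFA1b NS columns and 4.79, 3.1 and 3.55 FPKM in the WT NS columns. The groups were far apart, with 35S:HSFA1b NS column 2 the highest, and the log2 fold change was 7.05 (SE 0.186, limma adjusted p = 2.47e-07). Fragments of the transgene count towards this value together with those of the resident gene.

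In all, 1731 of the 17710 genes tested were DEGs (9.77%). Of these, 1084 were up-regulated in 35S:HSFA1b NS (6.12% of genes tested) and 647 down-regulated (3.65%). The up-regulated genes reached larger changes: 518 of them had a log2 fold change of at least 1, 224 of at least 2 and 121 of at least 3, against 63, 4 and 1 down-regulated genes with changes of these sizes in the other direction. The median log2 fold change was 0.96 among up-regulated and -0.55 among down-regulated genes. At an unadjusted limma p below 0.05, 2418 of the 17710 genes tested were higher and 2460 lower in 35S:HSFA1b NS. This is the background for such counts in the gene lists below. In each DEG the 3 columns of 35S:HSFA1b NS lay on one side of the 3 WT NS columns, while 36.7% of all genes tested showed such a separation.

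The columns of 35S:HSFA1b NS were not alike. The total of all FPKM values was 632840, 656418 and 833273 in its columns 0, 1 and 2, against 873541, 888302 and 956978 in WT NS. The 100 most abundant loci took 19.6% and 20.0% of the total in columns 0 and 1 and 33.9% in column 2, against 36.8 to 39.9% in WT NS. Column 2 therefore lay close to WT NS in this respect, and columns 0 and 1 stood apart. All 3 columns of 35S:HSFA1b HS had 22.3 to 23.9% there, and their labels all carry the number 720, whereas WT HS, with the other number, had 39.5 to 40.9%. Whether the number, the genotype or another property of the libraries goes with this cannot be told apart. With columns 0 and 1 left out, which leaves column 2 against the 3 WT NS columns and assumes that it varies like the other groups, 200 genes were up-regulated, 197 of them among the 1084, and 12 down-regulated, 8 of them among the 647. With column 2 left out, the numbers were 733 up-regulated (698 shared) and 457 down-regulated (336 shared).

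The cytosolic small heat shock proteins gave some of the largest increases, and all 9 were up-regulated, with a median log2 fold change of 7.32 beside -0.01 over all genes tested. HSP17.6II (AT5G12020), a class II small heat shock protein, had 899, 925 and 1444 FPKM in 35S:HSFA1b NS and 4.45, 1.41 and 2.57 FPKM in WT NS, a log2 fold change of 8.71 (SE 0.373, limma adjusted p = 2.59e-06). HSP17.4 (AT3G46230), of class I, had 516, 601 and 784 FPKM against 3.52, 1.53 and 2.33 FPKM (8.06, SE 0.292, limma adjusted p = 1.17e-06). HSP18.2 (AT5G59720), also of class I, had 587, 650.0 and 872 FPKM in 35S:HSFA1b NS and 3.49, 4.23 and 5.52 FPKM in WT NS (7.32). These 3 genes were thus abundant in 35S:HSFA1b NS and weakly expressed in WT NS, and column 2 was the highest and column 0 the lowest 35S:HSFA1b NS column for each. HSP17.6A (AT5G12030) had 507, 585 and 685 FPKM in 35S:HSFA1b NS and 5.09, 0.986 and 1.84 FPKM in WT NS (8.12). AT1G53540, annotated as an HSP20-like chaperone, had 319, 384 and 444 FPKM in 35S:HSFA1b NS and 1.63, 1.37 and 1.12 FPKM in WT NS (8.11, SE 0.203, limma adjusted p = 2.47e-07). The WT columns of HSP17.6A spread more widely than those of AT1G53540, with WT NS column 0 the highest of WT for both. AT2G29500, AT1G59860, AT1G07400 and AT1G54050, which encode further HSP20-like proteins, had log2 fold changes of 6.79, 4.59, 4.50 and 3.81. Summed over the 9 cytosolic and the 6 organelle small heat shock proteins, 35S:HSFA1b NS columns held 4409, 5074 and 6212 FPKM, which was 0.697, 0.773 and 0.746% of the column, against 62.2, 35.5 and 46.5 FPKM in WT NS. Column 0 was the lowest 35S:HSFA1b NS column for all 15 of these genes. The share of the column differed much less between the 35S:HSFA1b NS columns than the sum did. In leaves sampled whole, more cells with these transcripts and more transcript per cell cannot be told apart.

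**Figure D1:**
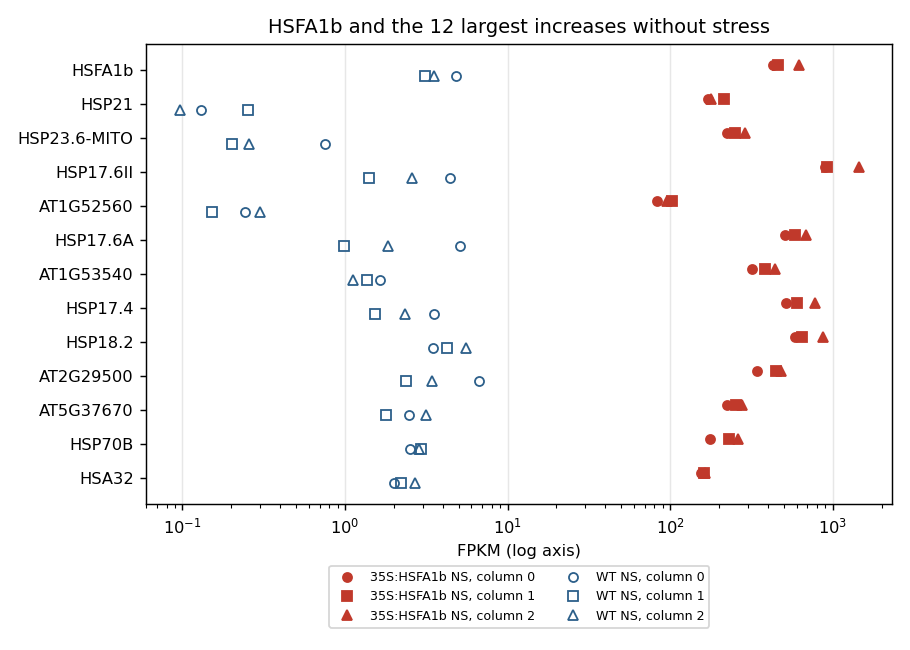
FPKM of HSFA1b and of the 12 genes with the largest log2 fold changes, on a log axis; each marker is 1 column, filled red for 35S:HSFA1b NS and open blue for WT NS, with the marker shape giving the column number. For every gene the 3 red markers lie close together and far to the right of the 3 blue ones, as in HSFA1b with 429.6, 462 and 624 FPKM against 4.79, 3.1 and 3.55 FPKM.

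Small heat shock proteins of organelles had very low WT levels and all 6 were up-regulated. HSP21 (AT4G27670), the small heat shock protein of the chloroplast, had 171, 214 and 179 FPKM in 35S:HSFA1b NS and 0.131, 0.254 and 0.0969 FPKM in WT NS, a log2 fold change of 10.21 (SE 0.392, limma adjusted p = 1.33e-06). It was the largest change among genes with values above 0 in all 6 columns and a mean of at least 10 FPKM in the higher group. HSP23.6-MITO (AT4G25200), a mitochondrial member, had 223, 250.3 and 288 FPKM in 35S:HSFA1b NS and 0.758, 0.201 and 0.256 FPKM in WT NS (9.49); 124 bp of it match AT3G05995 at 96.8% identity, so fragments there could be assigned to either. ATHSP22.0 (AT4G10250), which acts in the endoplasmic reticulum, had 65.8, 96.9 and 79.0 FPKM in 35S:HSFA1b NS, against 0.386, 0 and 0.191 FPKM in WT NS, where 1 column is listed at 0. AT1G52560, AT5G37670 and AT5G51440, which encode further HSP20-like proteins of organelles, had log2 fold changes of 8.65, 6.70 and 5.43. The lowest 35S:HSFA1b NS value of the 6 genes was 65.8 FPKM, in ATHSP22.0, and the median log2 fold change was 9.07. With column 2 as the only 35S:HSFA1b NS column, 5 of the 6 were called.

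The promoters of the called genes were searched for a heat shock element, since this is the motif the A1 factors are known to bind. A run of 3 perfect repeats was sought in the 250 bases before the RefSeq start of each gene, either GAA, 2 bases of any kind, TTC, 2 bases of any kind and GAA, or TTC, 2 bases, GAA, 2 bases and TTC. Each of these is the reverse complement of the other, so both strands were covered, and overlapping runs were counted. It was present in 17 of 1081 promoters of up-regulated genes (1.57%), 1 of 646 of down-regulated genes (0.155%) and 59 of 15879 of genes not called (0.372%). Among up-regulated genes with a log2 fold change of at least 1 it was in 13 of 515 promoters (2.52%), and with at least 3 in 5 of 121 (4.13%). These shares describe letters in a window, with no test, and few of the genes have the strict motif: of the 12 largest increases, AT1G53540 and HSP17.4 do. The promoters of 4 genes with it among those described here are shown, 5′ to 3′ in the direction of the gene, with the motif in capitals, from RefSeq on the TAIR10.1 assembly. They belong to 2 cytosolic small heat shock proteins, the galactinol synthase GOLS1 and the heat shock factor HSFA7A; the windows are chr1:19980049-19980298 on the plus strand, chr3:16984868-16985117 on the minus strand, chr2:19370479-19370728 on the minus strand and chr3:19264891-19265140 on the plus strand.
AT1G53540: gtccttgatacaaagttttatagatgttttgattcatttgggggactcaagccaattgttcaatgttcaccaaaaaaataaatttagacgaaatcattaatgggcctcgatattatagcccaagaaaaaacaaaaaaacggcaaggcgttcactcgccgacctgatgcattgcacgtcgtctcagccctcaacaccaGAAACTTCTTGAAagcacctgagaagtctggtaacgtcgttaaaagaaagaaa
HSP17.4: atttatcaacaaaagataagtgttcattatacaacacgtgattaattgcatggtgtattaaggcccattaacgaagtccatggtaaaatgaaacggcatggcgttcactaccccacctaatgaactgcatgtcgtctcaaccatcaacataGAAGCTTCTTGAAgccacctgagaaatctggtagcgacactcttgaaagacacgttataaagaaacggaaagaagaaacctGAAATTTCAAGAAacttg
GOLS1: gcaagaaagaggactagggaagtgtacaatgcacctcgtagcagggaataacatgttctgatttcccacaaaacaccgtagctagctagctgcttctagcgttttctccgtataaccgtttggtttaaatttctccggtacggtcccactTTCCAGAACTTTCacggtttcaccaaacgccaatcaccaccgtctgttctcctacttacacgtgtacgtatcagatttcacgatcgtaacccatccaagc
HSFA7A: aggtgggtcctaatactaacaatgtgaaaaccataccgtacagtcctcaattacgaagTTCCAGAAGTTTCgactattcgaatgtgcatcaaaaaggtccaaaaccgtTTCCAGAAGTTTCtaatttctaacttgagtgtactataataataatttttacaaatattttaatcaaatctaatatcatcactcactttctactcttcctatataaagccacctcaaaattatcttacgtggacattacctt
The match begins 53 bases before the start in AT1G53540 and 100 bases before it in GOLS1. HSP17.4 has matches beginning 99 and 18 bases before the start, and HSFA7A at 192 and 142 bases before it. HSP21, HSP17.6II and HSP18.2, which also rose, have no run of these letters in the same window.

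Among the larger chaperones, HSP70B, HSP70T-2, HSP70 and HSP90.1 rose the most. In the HSP70 family, 6 of 14 members tested were up-regulated and none down-regulated by limma (8 and 1 at an unadjusted p below 0.05), with a median of 0.42. HSP70B (AT1G16030) had 176, 229.9 and 263 FPKM in 35S:HSFA1b NS and 2.51, 2.94 and 2.86 FPKM in WT NS (6.31, SE 0.236, limma adjusted p = 1.2e-06). HSP70 (AT3G12580), a cytosolic member, had 595, 663 and 883 FPKM in 35S:HSFA1b NS and 64.9, 34.3 and 45.2 FPKM in WT NS (3.92). HSP70T-2 (AT2G32120) had 60.0, 67.2 and 68.2 FPKM in 35S:HSFA1b NS and 1.37, 1.71 and 1.84 FPKM in WT NS (5.31). These 3 separated cleanly and were also called with column 2 alone. The other 3 calls were smaller: AT1G11660 1.29, HSP70-15 0.78 and MTHSC70-2 0.51. HSP70-15 shares 93.6% identity with its neighbour AT1G79930 over 3027 bp, so its value is uncertain. HSC70-1 (AT5G02500), the most abundant constitutive member, had 939.8, 934 and 1465 FPKM in 35S:HSFA1b NS and 1891, 1736 and 1751 FPKM in WT NS, and its log2 fold change of -0.72 did not pass (limma adjusted p = 0.0544). With column 2 left out the list had 5 increases and 1 decrease.

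In the HSP90 family, 3 of 7 members were up-regulated and 1 was down-regulated. HSP90.1 (AT5G52640), the heat-inducible cytosolic member, had 494, 556 and 655 FPKM in 35S:HSFA1b NS and 38.7, 11.0 and 15.9 FPKM in WT NS (4.90, SE 0.389, limma adjusted p = 0.000118). The chloroplast member CR88 (AT2G04030) and the mitochondrial HSP90.6 (AT3G07770) rose by 0.68 and 0.60 on the log2 scale. HSP81.3 (AT5G56010), a constitutive cytosolic member, fell to 158, 152 and 164 FPKM in 35S:HSFA1b NS, against 405, 352 and 390.3 FPKM in WT NS (-1.28, SE 0.115, limma adjusted p = 0.000257). This decrease was of like size in each 35S:HSFA1b NS column, whereas the abundant photosynthesis genes given further on fell less in column 2. The 274 genes with a WT NS mean of 300 to 1000 FPKM, as HSP81.3 has, were also lower in each column. Their median log2 ratios to the WT NS mean were -0.53, -0.55 and -0.34 in columns 0, 1 and 2, and 42.7% were called lower. The part of this shift in the decrease of HSP81.3 was not tested. Cyclic loess scaling, which removes differences between columns that run with abundance, left 1 member of the HSP90 family called lower. Quantile scaling gave 2. HSP81.3 matches AT5G56000 at 93.7% and HSP81.2 at 90.7% identity, and HSP81.2 had a log2 fold change of -0.17 that did not pass, so the split of fragments among these copies is uncertain.

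Of the disaggregases and co-chaperones, 11 of 16 were up-regulated and none down-regulated by limma (12 and 1 at an unadjusted p below 0.05), with a median of 1.60. HSA32 (AT4G21320), a heat-induced protein needed for the memory of an earlier heat treatment, had 155, 162 and 165 FPKM in 35S:HSFA1b NS and 2.0, 2.2 and 2.71 FPKM in WT NS (6.13, SE 0.127, limma adjusted p = 1.21e-07). Its columns were alike within each group, and 113 bp of it overlap AT4G21323 on the same strand. ROF2 (AT5G48570), an immunophilin that binds HSP90, had 544, 566 and 753 FPKM in 35S:HSFA1b NS and 17.78, 6.66 and 7.88 FPKM in WT NS (5.97). BAG6 (AT2G46240), a BAG-domain co-chaperone, had 78.7, 94.7 and 93.0 FPKM in 35S:HSFA1b NS and 1.65, 1.32 and 1.18 FPKM in WT NS (6.0). HOP3 (AT4G12400), which links HSP70 to HSP90, had 135, 133 and 143 FPKM in 35S:HSFA1b NS and 4.32, 2.72 and 2.89 FPKM in WT NS (5.4). WT NS column 0 was the highest WT column for ROF2, BAG6 and HOP3, and it stayed far below 35S:HSFA1b NS for each. HSP101 (AT1G74310), the cytosolic disaggregase, had 101, 102 and 106 FPKM in 35S:HSFA1b NS and 9.43, 5.54 and 6.51 FPKM in WT NS (3.88, limma adjusted p = 4.69e-06). The mitochondrial and chloroplast disaggregases CLPB4 and CLPB3 rose by 2.2 and 1.31. FES1A, which acts with HSP70, rose by 1.90, and ROF1 and HOP2 by 1.1 and 0.92. ATJ3 (AT3G44110), a DnaJ protein that was abundant in both groups, had 246, 254 and 275 FPKM in 35S:HSFA1b NS and 250.5, 237 and 236 FPKM in WT NS and did not pass (0.10, limma adjusted p = 0.658). Of 11 chaperonins, which fold proteins in plastids and mitochondria, 3 rose, all by little: Cpn60beta3 1.22, HSP60-3A 0.93 and HSP60 0.70.

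Across the 8 lists of chaperones, heat shock factors and DREB2 and MBF1 factors, 47 of 85 genes tested were up-regulated, HSFA1b itself included, and 1 was down-regulated. They make up 29 of the 121 genes with a log2 fold change of at least 3, and 40 of the 518 with at least 1, so most up-regulated genes lie outside these lists.

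**Figure D2:**
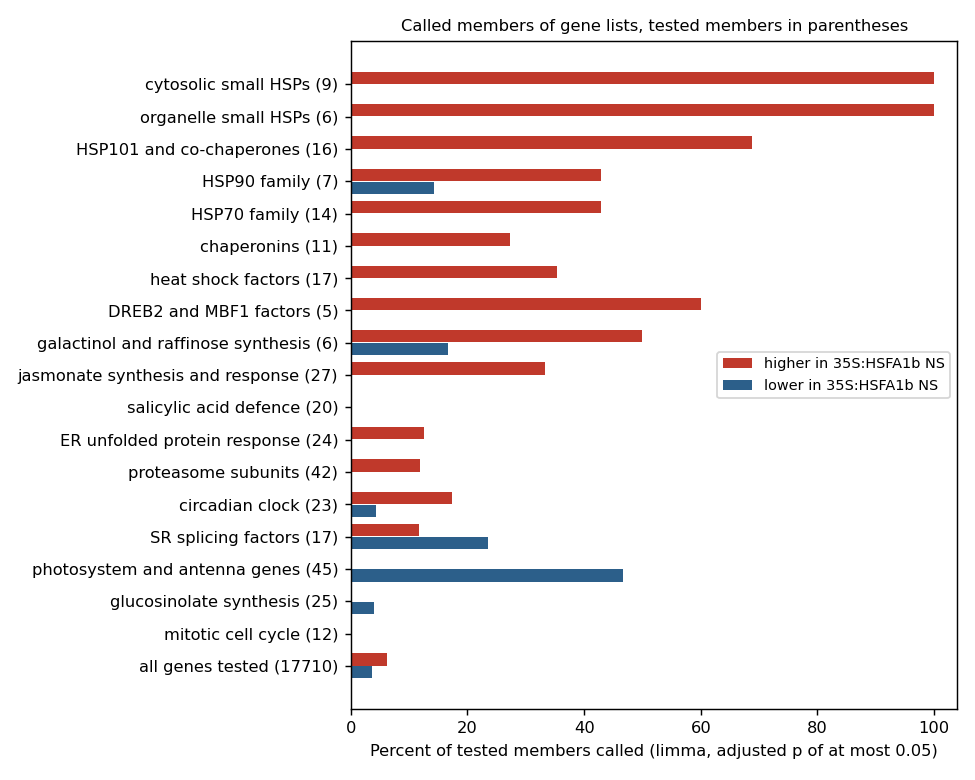
Percent of the tested members of each gene list that were called higher (red) or lower (blue) in 35S:HSFA1b NS by limma, with the number tested in parentheses. Both lists of small heat shock proteins reach 100% higher, and the photosystem and antenna list, with 21 of 45 members, has the largest share of lower calls; all genes tested are in the bottom row at 6.12 and 3.65%.

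The other heat shock factors responded in part. Of 21 heat shock factor genes, HSFA1b included, 17 passed the expression filter, 6 of these were up-regulated, all 17 fold changes were positive and the median was 1.1. The median depended on the scaling. After quantile scaling it was 0.26, with 13 positive and 4 negative fold changes, and after cyclic loess scaling 1.08, with 17 positive. Besides HSFA1b, the class B factors HSFB2A, HSFB1 and HSFB2B rose; class B factors lack the activation domain of class A and are known mainly as repressors. HSFB2A (AT5G62020) had 52.7, 57.6 and 61.9 FPKM in 35S:HSFA1b NS and 6.51, 5.0 and 7.15 FPKM in WT NS (3.22, SE 0.166, limma adjusted p = 7.98e-06). HSFB1 (AT4G36990) had 86.4, 109 and 148 FPKM in 35S:HSFA1b NS and 18.4, 9.69 and 10.7 FPKM in WT NS (3.17), and HSFB2B (AT4G11660) had 21.2, 23.1 and 24.4 FPKM against 6.33, 4.81 and 5.59 FPKM (2.04). The columns of HSFB1 spread more than those of HSFB2A and HSFB2B, and HSFB2B overlaps AT4G11670 and AT4G05910 on the opposite strand. HSFA7A (AT3G51910), a heat-induced class A factor, had 8.67, 10.9 and 8.53 FPKM in 35S:HSFA1b NS and 1.33, 0.911 and 1.33 FPKM in WT NS (2.98, limma adjusted p = 1.86e-05). HSFA2 (AT2G26150), the factor known to prolong the heat response, had 17.7, 20.08 and 21.5 FPKM in 35S:HSFA1b NS and 12.4, 3.53 and 4.74 FPKM in WT NS. WT NS column 0 stood well above the other 2 for HSFA2, and the log2 fold change of 1.73 passed narrowly (limma adjusted p = 0.0286) and in 12 of the 19 alternatives. HSFA1A and HSFA1D, of the same clade as HSFA1b, had log2 fold changes of 0.15 and 0.37 and did not pass.

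Among the DREB2 and MBF1 factors, 3 of 5 tested were up-regulated. MBF1C (AT3G24500), a transcriptional coactivator induced by heat, had 312, 346 and 425 FPKM in 35S:HSFA1b NS and 56.2, 31.9 and 35.6 FPKM in WT NS (3.16, SE 0.231, limma adjusted p = 6.76e-05). DREB2A (AT5G05410), a drought and heat factor known as a target of A1 class factors, stayed at a low level but separated: 2.55, 2.82 and 2.75 FPKM in 35S:HSFA1b NS and 0.613, 0.524 and 0.399 FPKM in WT NS (2.40, limma adjusted p = 0.00146). DREB2B overlaps AT3G11030 on the opposite strand over 1086 bp, and without a statement that counting used the strand, its log2 fold change of 2.56 may hold fragments of either gene. MBF1A (AT2G42680), a constitutive member, had 91.2, 85.5 and 90.4 FPKM in 35S:HSFA1b NS and 90.7, 74.7 and 78.9 FPKM in WT NS and did not pass.

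Several genes were listed at 0 in all 3 columns of one group, so that no fold is given for them. APX2 (AT3G09640), a cytosolic ascorbate peroxidase known to respond to heat and excess light, had 108, 138 and 116 FPKM in 35S:HSFA1b NS and is listed at 0 in all 3 WT NS columns. SMR5 (AT1G07500), a cyclin-dependent kinase inhibitor of the SIAMESE-related family, had 30.2, 84.2 and 7.31 FPKM in 35S:HSFA1b NS and is likewise listed at 0 in WT NS. Unlike APX2, SMR5 differed more than 10-fold between its 35S:HSFA1b NS columns, with column 2 the lowest, and 266 bp of it overlap AT1G07510 on the opposite strand. AT1G64195 had 9.05, 16.4 and 3.64 FPKM and AT2G23110 had 1.93, 5.28 and 3.12 FPKM in 35S:HSFA1b NS, and both are listed at 0 in WT NS. In the other direction, AT5G15420 is listed at 0 in the 3 35S:HSFA1b NS columns and had 3.98, 4.67 and 4.35 FPKM in WT NS; it has a copy, AT1G20390, at 95.3% identity, so its level is uncertain. In the ascorbate peroxidase list of 8, APX2 was the only increase and APX3 the only decrease (-0.33, called in 6 of 18 alternatives), while APX1 (AT1G07890), the main cytosolic enzyme, had 739, 845 and 932 FPKM in 35S:HSFA1b NS and 796, 726 and 810.1 FPKM in WT NS and did not pass. Of 11 catalases and superoxide dismutases, the copper/zinc enzyme CSD3 (AT5G18100) rose, with 83.8, 89.95 and 70.6 FPKM in 35S:HSFA1b NS and 41.5, 42.6 and 46.8 FPKM in WT NS (0.90). CAT2, the leaf catalase of photorespiration, was called lower (-0.82) but not after cyclic loess scaling.

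Galactinol synthases make the donor for raffinose, a sugar that accumulates in stressed leaves, and 3 of the 6 galactinol and raffinose genes rose while 1 fell. GOLS1 (AT2G47180) had 612, 982 and 1316 FPKM in 35S:HSFA1b NS and 70.4, 39.3 and 46.7 FPKM in WT NS (4.19, SE 0.298, limma adjusted p = 5.6e-05). It had one of the 5 largest differences of mean FPKM among the increases. GOLS2 (AT1G56600) had 183, 257 and 265 FPKM in 35S:HSFA1b NS and 79.3, 27.7 and 42.2 FPKM in WT NS (2.36), and GOLS4 (AT1G60470) had 1.25, 2.96 and 1.6 FPKM against 0.126, 0 and 0 FPKM, a call whose size depends on the pseudocount. GOLS3 (AT1G09350), known as the cold-induced form, fell to 3.88, 3.07 and 3.58 FPKM in 35S:HSFA1b NS, against 6.92, 11.0 and 11.6 FPKM in WT NS (-1.46, limma adjusted p = 0.00426). The raffinose synthases RS2 and RS5 did not pass. The cold-regulated list was split as well, with KIN1 (AT5G15960) up at 107, 226 and 212 FPKM in 35S:HSFA1b NS and 20.5, 7.87 and 11.3 FPKM in WT NS (3.82), COR15B (AT2G42530) down at 43.6, 71.2 and 60.7 FPKM in 35S:HSFA1b NS and 94.7, 97.9 and 116 FPKM in WT NS (-0.83), and 9 of the 11 genes tested not passing.

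Some further genes with large increases lie outside the lists and were chosen after their values were seen. EGY3 (AT1G17870), a protease-like protein of the chloroplast, had 259, 321 and 326 FPKM in 35S:HSFA1b NS and 13.8, 9.99 and 10.9 FPKM in WT NS (4.71). AT3G10020 had 219.7, 289 and 378 FPKM in 35S:HSFA1b NS and 15.2, 12.6 and 12 FPKM in WT NS (4.45). VHA-E3 (AT1G64200), a subunit of the vacuolar proton pump, had 191, 306 and 247 FPKM in 35S:HSFA1b NS and 26.9, 17.85 and 29.2 FPKM in WT NS (3.33). None of these 3 belongs to the heat lists, and each had a larger log2 fold change than MBF1C. AT1G03070, annotated as a Bax inhibitor-1 family protein, had 44.6, 63.3 and 63.9 FPKM in 35S:HSFA1b NS and 1.04, 1.02 and 0.91 FPKM in WT NS (5.82). AtCDC48B (AT3G53230), an ATPase of the CDC48 family that unfolds proteins, had 74.6, 94.9 and 89.4 FPKM in 35S:HSFA1b NS and 10.5, 5.18 and 6.64 FPKM in WT NS (3.59). The inositol transporter INT2 (AT1G30220) had 12.7, 21.2 and 16.8 FPKM in 35S:HSFA1b NS and 0.837, 0.246 and 0.458 FPKM in WT NS (5.15). The 35S:HSFA1b NS columns differed by less than 2-fold in all 6 of these genes.

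Jasmonate genes rose in part and unevenly between columns. Jasmonate is a wound and defence hormone made from lipids in the plastid, and its response is held back by JAZ repressors, whose own genes it induces. Of 27 genes tested, 9 were up-regulated and none down-regulated by limma (19 and 0 at an unadjusted p below 0.05), 26 fold changes were positive and the median was 1.07. VSP2 (AT5G24770), a vegetative storage protein used as a marker of jasmonate, had 58.9, 504 and 384 FPKM in 35S:HSFA1b NS and 41.8, 10.4 and 37.8 FPKM in WT NS (3.15, SE 0.806, limma adjusted p = 0.0439). VSP1 (AT5G24780) had 19.4, 124 and 67.9 FPKM in 35S:HSFA1b NS and 16.0, 1.93 and 4.62 FPKM in WT NS (3.38, limma adjusted p = 0.0358). In both genes 35S:HSFA1b NS column 0 lay close to the highest WT NS column, and columns 1 and 2 were several-fold above it. Column 0 was the lowest 35S:HSFA1b NS column for 24 of the 27 genes. Among the repressors, JAZ1 (AT1G19180) had 19.5, 51.3 and 35.8 FPKM in 35S:HSFA1b NS and 9.87, 4.19 and 5.15 FPKM in WT NS (2.46). JAZ10 (AT5G13220) had 6.57, 18.6 and 11.5 FPKM in 35S:HSFA1b NS and 2.42, 1.96 and 1.96 FPKM in WT NS (2.41, limma adjusted p = 0.00764). JAZ5, JAZ12 and JAZ2 rose by 2.37, 1.07 and 0.92. Of the enzymes of synthesis, AOC4 (AT1G13280), an allene oxide cyclase, had 65.5, 92.9 and 82.1 FPKM in 35S:HSFA1b NS and 41.3, 36.2 and 41.6 FPKM in WT NS (1.00, limma adjusted p = 0.00197). OPR3 (AT2G06050), a reductase of the same pathway, had 54.9, 97.5 and 83.5 FPKM in 35S:HSFA1b NS and 39.4, 24.3 and 35.5 FPKM in WT NS (1.24). LOX2 (AT3G45140), the lipoxygenase that starts synthesis in wounded leaves, had 451, 949 and 1010.3 FPKM in 35S:HSFA1b NS and 520.3, 199.7 and 264 FPKM in WT NS; WT NS column 0 lay above 35S:HSFA1b NS column 0, and LOX2 did not pass (limma adjusted p = 0.068). The count of 9 depended on the columns: 3 with 35S:HSFA1b NS column 2 left out, 1 with column 2 as the only 35S:HSFA1b NS column, 3 without column 1, 3 without WT NS column 1, 3 without WT NS column 2, 15 without 35S:HSFA1b NS column 0 and 14 without WT NS column 0.

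In the salicylic acid and endoplasmic reticulum genes, 1 WT column stood apart. WT NS column 0 was the highest WT column for all 20 salicylic acid defence genes and all 24 genes of the unfolded protein response, and for 16 of 18 stress WRKY factors. PR1 (AT2G14610), the marker gene of salicylic acid defence, had 92.4, 134 and 116 FPKM in 35S:HSFA1b NS and 294, 3.53 and 4.87 FPKM in WT NS. PR2 (AT3G57260), a glucanase, had 641, 288 and 698 FPKM in 35S:HSFA1b NS and 446, 15.9 and 26.7 FPKM in WT NS, and PR5 (AT1G75040), a thaumatin-like protein, had 246, 127 and 217 FPKM against 391, 46.6 and 57.0 FPKM. For all 3 genes WT NS column 0 lay within or above the range of 35S:HSFA1b NS, and WT NS columns 1 and 2 lay below it. At an unadjusted limma p below 0.05, 2 of the 20 genes were higher, beside 2418 of the 17710 genes tested. None of the 20 genes was called by limma, while 19 fold changes were positive and the median was 0.94. Without WT NS column 0, 4 were up-regulated and the median was 1.70, whereas without WT NS column 1 the median was 0.38 and without WT NS column 2 it was 0.61, with no call in either fit. The groups did not overlap in 1 of the 20 genes, and WT NS column 0 was above all 35S:HSFA1b NS columns in 11. No stress WRKY factor was called by limma (2 of 18 had an unadjusted p below 0.05), and 5 were up-regulated without WT NS column 0. In the unfolded protein response, which raises chaperones of the endoplasmic reticulum, 3 of 24 genes were up-regulated. There were 7 without WT NS column 0 and 2 without any other single column. ERDJ3A (AT3G08970), a DnaJ protein of the endoplasmic reticulum, had 29.7, 31.0 and 26.9 FPKM in 35S:HSFA1b NS and 4.71, 0.916 and 1.65 FPKM in WT NS (3.91, limma adjusted p = 0.00171). TIN1 (AT5G64510), a protein induced by misfolding there, had 37.4, 39.8 and 32.5 FPKM in 35S:HSFA1b NS and 8.8, 1.58 and 2.19 FPKM in WT NS (3.54). BIP1 (AT5G28540), the main HSP70 of the endoplasmic reticulum, had 231, 187 and 259 FPKM in 35S:HSFA1b NS and 206, 109 and 117 FPKM in WT NS and did not pass (limma adjusted p = 0.191). The third call was the stress-activated factor BZIP28 (0.66).

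**Figure D3:**
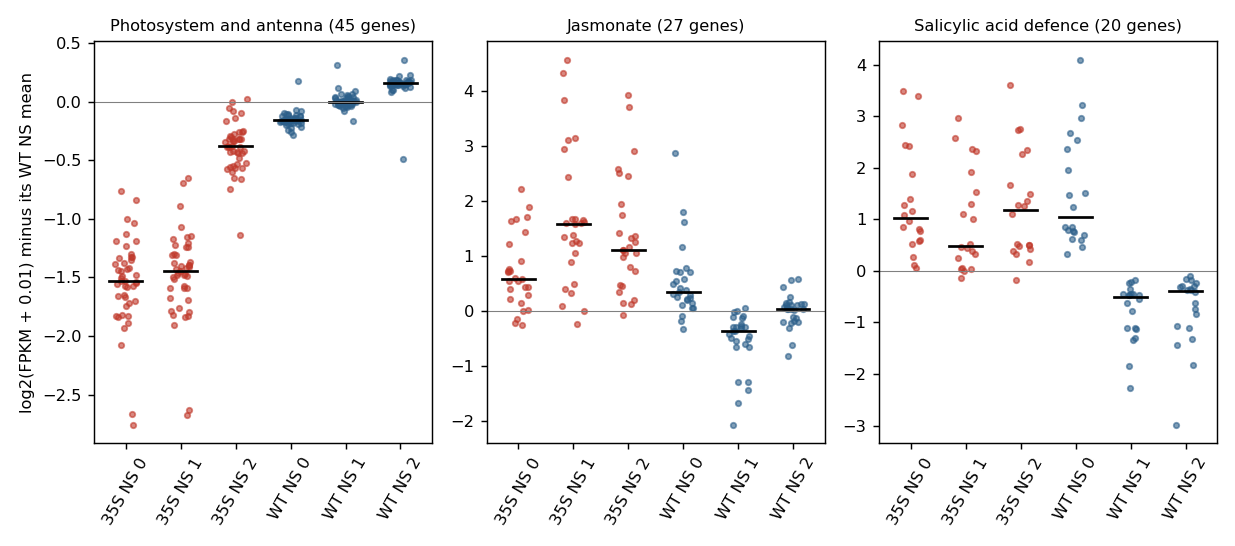
Each gene's log2(FPKM + 0.01) minus its mean over WT NS, by column, for the photosystem and antenna, jasmonate and salicylic acid defence lists; points are genes and black bars column medians, red for 35S:HSFA1b NS and blue for WT NS. Column 2 of 35S:HSFA1b NS has a median of -0.38 for the photosystem genes, against -1.53 and -1.45 in columns 0 and 1; WT NS column 0 has a median of 1.05 for the salicylic acid genes, close to 1.03, 0.49 and 1.18 in 35S:HSFA1b NS.

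Stress-related ERF, ZAT and NAC factors showed positive medians with few calls. RAP2.6 was the only call among 14 ERF factors (median 1.67): it had 0.767, 2.34 and 1.65 FPKM in 35S:HSFA1b NS and 0.0679, 0.0661 and 0.151 FPKM in WT NS (3.88). ZAT12, a zinc finger factor of many stresses, was the only call among 8 ZAT and AZF genes, with 6.05, 14.4 and 12 FPKM in 35S:HSFA1b NS and 1.88, 0.534 and 1.16 FPKM in WT NS (3.25, limma adjusted p = 0.0166). WT NS column 0 was the highest WT column of ZAT12 too. NAP, a NAC factor of leaf senescence, was the only call among 12 NAC factors (1.03), and the ribonuclease RNS1 the only one among 8 senescence markers (2.70). None of 9 touch and calmodulin-like genes was called by limma (median 1.02, 3 at an unadjusted p below 0.05), and 3 genes were called in each of the ERF, ZAT and NAC lists when WT NS column 0 was left out. The calls of ZAT12 and NAP were lost without 35S:HSFA1b NS column 1, 35S:HSFA1b NS column 2, WT NS column 1 or WT NS column 2, and that of RNS1 also without 35S:HSFA1b NS column 0. With column 2 as the only 35S:HSFA1b NS column, no gene of the ERF, ZAT and NAC lists was called by limma, where 5, 4 and 6 had an unadjusted p below 0.05 in the fit to all columns.

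The most abundant transcripts of the leaf, those of photosynthesis, were lower in 35S:HSFA1b NS, by an amount that differed between its columns. Of 45 genes of the photosystems and their antennae, 21 were down-regulated and none up-regulated by limma (45 and 0 at an unadjusted p below 0.05), all 45 fold changes were negative and the median was -1.12. LHCB1.4 (AT2G34430), an antenna protein of photosystem II, had 1126, 1275 and 2121 FPKM in 35S:HSFA1b NS and 3194, 3720.4 and 3819 FPKM in WT NS (-1.30, SE 0.236, limma adjusted p = 0.0118). LHCB3 (AT5G54270) had 2307, 2423 and 5969 FPKM in 35S:HSFA1b NS and 7657, 8461 and 9711 FPKM in WT NS (-1.41, limma adjusted p = 0.0415). LHCA4 (AT3G47470), of photosystem I, had 2034, 2150.3 and 5216 FPKM in 35S:HSFA1b NS and 6589.6, 7250.3 and 8064 FPKM in WT NS (-1.36). In these 3 genes column 2 was the 35S:HSFA1b NS column nearest to WT NS, and columns 0 and 1 lay well below it. Column 2 was the highest 35S:HSFA1b NS column in all 45 genes and lay below all WT NS columns in 39, while columns 0 and 1 did so in 45. LHCB1.3 (AT1G29930), the most abundant transcript of the table in WT NS, had 4095, 4324 and 21188 FPKM in 35S:HSFA1b NS and 24698, 27986 and 30644 FPKM in WT NS, and with this spread it did not pass (-1.94, limma adjusted p = 0.0689). Fragments of LHCB1 copies may be split among them. Ferredoxin FED A (AT1G60950) had 1169, 1104 and 2432 FPKM in 35S:HSFA1b NS and 3309, 4220.0 and 4923 FPKM in WT NS (-1.48), and the Rubisco small subunit RBCS2B had a log2 fold change of -1.37. NPQ4, the photosystem II protein that starts the dissipation of excess light, had 1198, 1273 and 1988 FPKM in 35S:HSFA1b NS and 2682, 3144 and 3659.5 FPKM in WT NS (-1.12).

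The count of 21 was not stable. It was 44 with 35S:HSFA1b NS column 2 left out, 0 with column 2 as the only 35S:HSFA1b NS column, 10 without WT NS column 0, 1 without WT NS column 1, 1 without WT NS column 2, 2 without 35S:HSFA1b NS column 0 and 1 without column 1. Cyclic loess scaling left 2 decreases and a median of -0.20, and quantile scaling 1 decrease, a median of -0.04 and 19 positive fold changes of 45. LHCB4.3 (AT2G40100), an antenna gene of lower abundance, was an exception with 31.5, 32.6 and 32.8 FPKM in 35S:HSFA1b NS and 63.1, 64.4 and 92.5 FPKM in WT NS: its 35S:HSFA1b NS columns were alike (-1.16, limma adjusted p = 0.00388), and it was also called after cyclic loess scaling.

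**Figure D4:**
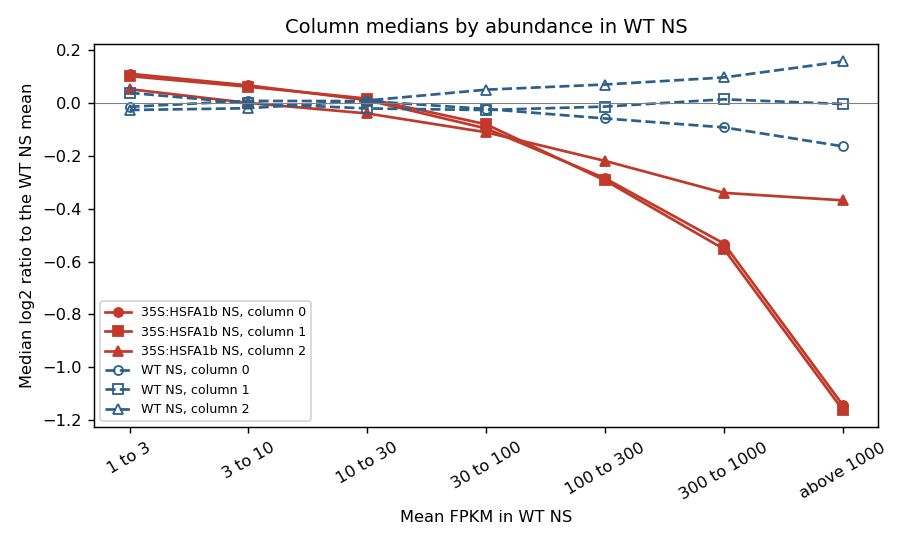
Median log2 ratio of each column to the WT NS mean, for genes grouped by their mean FPKM in WT NS. Lines are columns, solid red for 35S:HSFA1b NS and dashed blue for WT NS; in genes above 1000 FPKM the medians are -1.14, -1.16 and -0.37 in 35S:HSFA1b NS columns 0, 1 and 2, against -0.16 to 0.16 in WT NS, and in genes between 1 and 30 FPKM they lie near 0.

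The columns also differed when genes were grouped by abundance alone, a grouping in which the top class holds many photosystem genes. In the 105 genes with a WT NS mean of at least 1000 FPKM, the median log2 ratio to the WT NS mean was -1.14, -1.16 and -0.37 in 35S:HSFA1b NS columns 0, 1 and 2, and in the 850 genes between 100 and 300 FPKM it was -0.28, -0.29 and -0.22, with little difference between columns. In the 274 genes between 300 and 1000 FPKM the medians were -0.53, -0.55 and -0.34. Decreases were called in 42.9% of the 105 genes, 42.7% of the 274 and 17.76% of the 850, against 2.24% of the genes between 10 and 30 FPKM. Of the 647 down-regulated genes, 303 were also called lower after cyclic loess scaling, which removes differences between columns that run with abundance, and 1004 of the 1084 up-regulated genes were also called higher. The 5 marker genes of leaf mesophyll, RBCS1A, LHCB1.1, CA1, RCA and GAPA, are themselves genes of photosynthesis, so they give no separate reading of the mesophyll. They moved with the abundant genes and summed to 10910, 11230 and 34960 FPKM in 35S:HSFA1b NS and 37250, 43000 and 47760 FPKM in WT NS, and 1 of the 5 was called lower. Their part in the result was not tested. Markers of guard cells summed to 891, 1198 and 1472 FPKM in 35S:HSFA1b NS and 1283, 1414 and 1814 FPKM in WT NS, and those of phloem and vasculature to 103, 133 and 118 FPKM against 80.0, 103 and 83.8 FPKM, with no member called by limma in either list (0 and 1 at an unadjusted p below 0.05). None of the 5 flower and pollen markers passed the filter on low values, and the flower gene AP1 is listed at 0 in the 6 columns. Of the 5 root markers, WOX5, IRT1 and RHD2 had less than 1 FPKM in all 6 columns, and SHR had 6.05, 5.26 and 7.54 FPKM in 35S:HSFA1b NS and 6.83, 8.77 and 6.4 FPKM in WT NS and did not pass. The other was PYK10 (AT3G09260), a beta-glucosidase of endoplasmic reticulum bodies, which had 39.6, 40.2 and 41.6 FPKM in 35S:HSFA1b NS and 15.74, 13.7 and 15.2 FPKM in WT NS (1.45, limma adjusted p = 0.00331).

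Other decreases showed no gap between column 2 and columns 0 and 1. MEE3 (AT2G21650), a small MYB-related protein, had 9.12, 2.86 and 4.35 FPKM in 35S:HSFA1b NS and 18.9, 32.1 and 35.5 FPKM in WT NS (-2.52, SE 0.415, limma adjusted p = 0.0073), the largest decrease among genes above 0 in all columns and with a mean of at least 10 FPKM in WT NS. It was called in all 19 alternatives, column 2 alone included. CIPK15 (AT5G01810), a calcium-dependent signalling kinase, had 16.3, 13.6 and 16.6 FPKM in 35S:HSFA1b NS and 28.9, 43.8 and 42.6 FPKM in WT NS (-1.29, limma adjusted p = 0.00242), and was called in 18 of 19. FBA5 (AT4G26530), a fructose-bisphosphate aldolase, had 160.1, 142 and 164 FPKM in 35S:HSFA1b NS and 284, 498 and 578 FPKM in WT NS (-1.48, called in 13 of 18 alternatives). The glucosidase-family gene BGLU47 (AT4G21760) had 13.3, 11.9 and 9.94 FPKM in 35S:HSFA1b NS and 24.9, 37.1 and 36.9 FPKM in WT NS (-1.48, called in 12 of 19). WT NS column 0 was the lowest WT column in these 4 genes, and still above every 35S:HSFA1b NS column. AHP4 (AT3G16360), a phosphotransfer protein of the cytokinin pathway, had 1.18, 0.618 and 0.408 FPKM in 35S:HSFA1b NS and 2.7, 2.61 and 6.31 FPKM in WT NS (-2.39, called in 12 of 18), and was the only call among 16 cytokinin response genes. In the flavonoid list, FLS1 and 4CL3 fell by 0.91 and 0.91 on the log2 scale, in 16 and 10 of 19 alternatives, and the 16 others tested did not pass. Of 25 glucosinolate genes, which make defence compounds, only the regulator MYB28 (AT5G61420) was called, with 46.6, 46.4 and 44.9 FPKM in 35S:HSFA1b NS and 70.1, 88.4 and 85.8 FPKM in WT NS (-0.82, limma adjusted p = 0.0437). That call was lost after cyclic loess scaling and in every fit that left out a single column other than WT NS column 0.

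Hormone genes outside the jasmonate pathway gave isolated calls. CYP707A4 (AT3G19270), which breaks down abscisic acid, had 11.7, 11.6 and 10.6 FPKM in 35S:HSFA1b NS and 1.93, 2.52 and 1.9 FPKM in WT NS (2.42, SE 0.179, limma adjusted p = 7.22e-05). It was the only increase among 23 abscisic acid genes, and RD22 the only decrease (-0.63, called in 5 of 18 alternatives). GA2OX1 (AT1G78440), which inactivates gibberellin, had 4.51, 4.82 and 5.26 FPKM in 35S:HSFA1b NS and 9.42, 11.0 and 13.3 FPKM in WT NS (-1.20), and the DELLA repressor RGA fell by 0.35; they were called in 15 and 12 of 19 alternatives. GASA1 (AT1G75750), a gibberellin-responsive gene, had 344, 213 and 411 FPKM in 35S:HSFA1b NS and 129, 92.5 and 108 FPKM in WT NS (1.51). Thus 1 of 16 gibberellin genes rose and 2 fell. The auxin repressors IAA8 and IAA27 fell by 0.40 and 0.46, and the other 21 Aux/IAA genes tested did not pass. Both calls were lost in every fit that left out a single column other than WT NS column 0. The brassinosteroid receptor BRI1 rose by 0.38, in 7 of 19 alternatives.

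Light, clock and growth genes changed little. RVE1 (AT5G17300), a clock-related MYB factor, had 12.6, 12.6 and 11.0 FPKM in 35S:HSFA1b NS and 4.63, 6.1 and 4.65 FPKM in WT NS (1.24, limma adjusted p = 0.000431). Of 23 clock genes, RVE1, RVE7, ELF3 and GI rose (log2 fold changes of 1.24, 0.74, 0.73 and 0.46) and LHY fell (-0.44), with a median of 0.08, and the calls of GI and LHY held in 10 and 6 of 19 alternatives; RVE7 has a copy, AT3G10113, at 99.7% identity. PIF3 (AT1G09530), a factor that acts below phytochrome, had 10.7, 16.6 and 11.9 FPKM in 35S:HSFA1b NS and 7.22, 6.12 and 5.46 FPKM in WT NS (1.04), and PHYA rose by 0.49; the other 13 genes of this list did not pass. Of 17 flowering time genes only MAF2 was called (0.51, in 13 of 19 alternatives). No call was made by limma among 12 mitotic genes, 8 DNA damage genes or 13 alpha-expansins. At an unadjusted limma p below 0.05, 1, 1 and 4 of them were lower in 35S:HSFA1b NS and none higher. Beside these stand 2460 lower of the 17710 genes tested. The medians of these lists were -0.13, -0.09 and -0.26.

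Single members of other families rose. SR30 (AT1G09140), a splicing factor, had 103, 114 and 109.9 FPKM in 35S:HSFA1b NS and 38.7, 34.2 and 35.0 FPKM in WT NS (1.60, SE 0.106, limma adjusted p = 3.49e-05). The SR list of 17 had 2 increases and 4 decreases, and the decreases were small, from -0.29 in RS2Z32 to -0.45 in SCL30A. There was 1 decrease without 35S:HSFA1b NS column 0, 2 without WT NS column 0, and none without 35S:HSFA1b NS column 1, WT NS column 1 or WT NS column 2 by limma, while 6 had an unadjusted p below 0.05 in the fit to all columns. Each fit that left out a single column had 1 increase. The aquaporin PIP2;3 (AT2G37180) had 229, 288 and 321 FPKM in 35S:HSFA1b NS and 95.4, 92.4 and 96.7 FPKM in WT NS (1.55, limma adjusted p = 0.00015). It shares 93.1% identity with AT2G37170, so the split between them is uncertain. PIP2;3 and PIP2;5 were the 2 calls among 13 aquaporins, of which 7 were called higher after cyclic loess scaling. Of 42 proteasome genes, 5 rose, PBC2 most (0.84), with a median of 0.11. In the iron and sulphur list of 13, LSU1 rose (2.29) and FER1, APR3 and BHLH100 fell, decreases that were not called after cyclic loess scaling.

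The same genotype contrast after heat stress shares no column with the NS contrast and was used as a second look at the DEGs. There, 5121 of 17720 genes were called (28.9%), with 2149 higher (12.1%) and 2972 lower (16.8%) in 35S:HSFA1b HS. Of the 1084 genes up-regulated at NS, of which 1082 were tested at HS, 502 (46.3%) were also higher and 177 (16.3%) were lower. Of the 647 down-regulated genes, 381 (58.9%) were also lower and 6 (0.927%) higher. All 3 35S:HSFA1b HS columns had the low share of abundant transcripts given above, and its part in this overlap was not tested. HSFA1b was higher at HS as well (5.70, with 329.9, 364 and 351 FPKM in 35S:HSFA1b HS and 6.17, 6.56 and 7.31 FPKM in WT HS). The small heat shock proteins mostly did not keep their direction. HSP17.6II had 3378, 3314 and 2909 FPKM in 35S:HSFA1b HS and 8009, 8642 and 10631 FPKM in WT HS (-1.50). HSP18.2 had 2158, 2221 and 1872 FPKM in 35S:HSFA1b HS and 2067, 2189 and 4199 FPKM in WT HS (-0.36), and did not pass there (limma adjusted p = 0.336). Of the 9 cytosolic members, 8 were lower in 35S:HSFA1b HS, and of the 6 organelle members 1 was higher and 2 were lower. HSP21 had 1301, 1433 and 1173 FPKM in 35S:HSFA1b HS and 677, 924 and 1767 FPKM in WT HS and did not pass there (0.33, limma adjusted p = 0.523). The levels in unstressed 35S:HSFA1b leaves were thus far above unstressed WT and, for HSP17.6II, below both heated groups. Of the jasmonate genes 2 were higher and 2 lower at HS, and of the photosystem genes 42 of 45 were lower. CYP707A4 and MBF1C had HS log2 fold changes of 1.70 and -1.76 (limma adjusted p = 8.68e-05 and 0.000149).

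**Figure D5:**
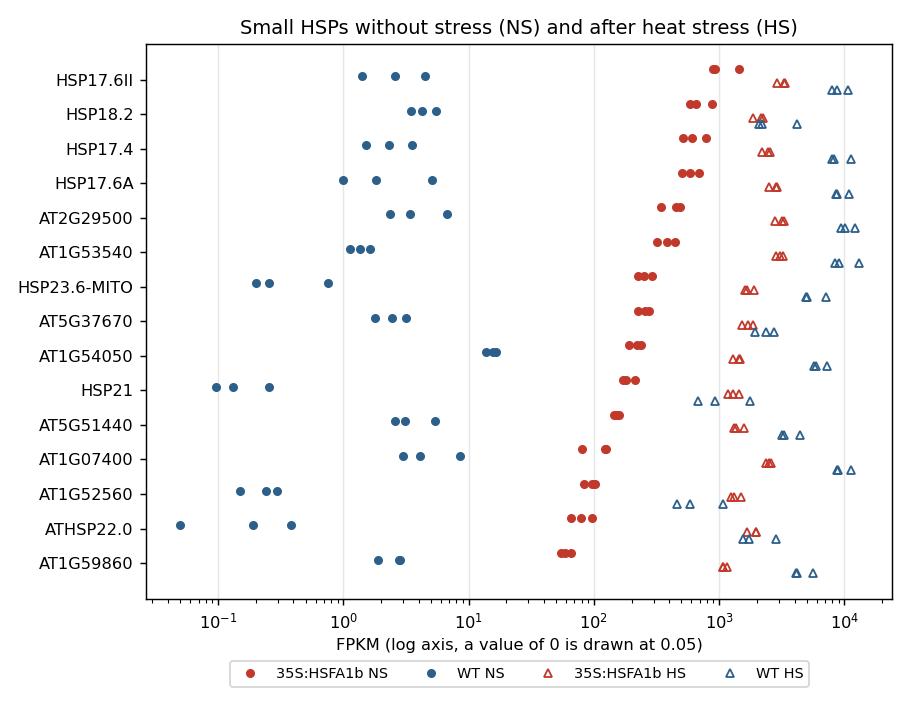
FPKM of the 15 small heat shock proteins in each column on a log axis, with red for 35S:HSFA1b and blue for WT, filled circles for NS and open triangles for HS. In all 15 genes the mean of the filled red circles lies above that of the filled blue circles and below those of both sets of triangles; HSP17.6II had 899, 925 and 1444 FPKM in 35S:HSFA1b NS, 4.45, 1.41 and 2.57 FPKM in WT NS, 3378, 3314 and 2909 FPKM in 35S:HSFA1b HS and 8009, 8642 and 10631 FPKM in WT HS.

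Across the 19 alternatives in processing, the largest increases were the most stable result. All 12 were called in every alternative fit, those that left out a column or left only column 2 included. The 12 largest decreases were not: 6 were called after cyclic loess scaling and 1, MEE3, with column 2 as the only 35S:HSFA1b NS column. In the up-regulated genes the column nearest to WT NS was column 0 in 48.5%, column 1 in 14.8% and column 2 in 36.7%, and in the down-regulated genes column 2 in 49.6%, column 0 in 34.3% and column 1 in 16.1%. The number of DEGs also moved with single columns: without 35S:HSFA1b NS column 0 there were 827 up-regulated and 280 down-regulated genes, and without its column 1 there were 543 and 98. Without WT NS column 0 there were 1371 up-regulated and 777 down-regulated genes, without WT NS column 1 there were 590 and 95, and without WT NS column 2 there were 607 and 85.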

How the data were processed

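RNA was taken from whole leaf samples and sequenced from TruSeq libraries. The authors mapped the reads with GSNAP and made the FPKM values with Cufflinks and Cuffdiff under geometric normalization, on TAIR10 per the labels; the versions are not given in the sources used here. The deposited table holds FPKM per locus and column, normalized jointly, and no counts, so depth is unknown and counting error cannot be estimated. Whether counting used the strand is not stated. Columns were assigned to groups by name and not to single libraries. The genotype label reads wild type for every library; the groups here follow the titles, with the HSFA1b level as a check.

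Log2(FPKM + 0.01) was fitted with limma 3.58.1 in R 4.3.3 (lmFit, eBayes with trend) over 9 columns (35S:HSFA1b NS, WT HS and WT NS), for genes averaging 1 FPKM or more, with Benjamini-Hochberg adjustment over 17710 genes. HS contrasts and the difference between contrasts came from all 12 columns. A test of a single gene by exact permutation of 3 against 3 columns cannot go below p = 0.1. On simulated data of 17710 genes, the NS fit recovered 64 of 100 genes changed by a log2 of 1. It recovered 92 of 100 genes changed by a log2 of 2. There were 12 other calls, and 0 calls in data without change. The simulation varied each gene on its own and put no shift across many genes of a column. The columns compared here do have such shifts, so the simulated numbers of false calls do not carry over to them. Sharing of column numbers was checked, and the correlations of deviations were -0.138, -0.176 and -0.0167. Shifts shared by many genes of a column enter these values, so they cannot decide whether the numbers pair columns. Copies were searched with BLAST+ 2.17.0 (at least 90% identity over 100 bp). Names, overlaps and promoters come from RefSeq (TAIR10.1). Tables and figures used Python 3.11.15, numpy 2.4.6, pandas 2.3.3 and matplotlib 3.10.9.

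Named genes were HSFA1b, the 12 largest increases and decreases with columns that do not overlap, a mean of at least 10 FPKM in the higher group and no value of 0, the 5 highest genes listed at 0 in one group, the 5 largest differences of mean FPKM in each direction, and, per gene list, up to 4 called members and the most abundant member that did not pass. Other genes are members of the lists or are said to be chosen after their values were seen. The members and lists were chosen with earlier results of these data known. Alternatives covered the pseudocount, filter, columns fitted, trend, scaling, a block by column number, fold and p thresholds, and each column left out; cyclic loess scaling, genes with a WT NS mean below 100 FPKM and 35S:HSFA1b NS columns 0 and 1 left out together were added after seeing the data. The list of cytosolic ribosomal proteins matched only 8 loci and was not used.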

Additional observations from a re-analysis of the deposited data

Results flagged for a closer look

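The difference between genotypes at NS and that at HS were themselves different in the 12-column limma fit for 14 named genes. These are the 12 largest increases, MEE3 and BGLU47. They are not all the named genes whose contrasts differed: MBF1C rose at NS and was lower at HS, as given above. The values given are the HS log2 fold change minus the NS log2 fold change, both 35S:HSFA1b over WT, with the adjusted p of that difference. The 14 genes were picked by their NS log2 fold change, which is part of this value. That choice favours a negative value for increases and a positive one for decreases. In the 12 genes with the largest increases at NS the value was negative, so that the high level of 35S:HSFA1b over WT at NS was reduced or turned at HS. Among cytosolic small heat shock proteins it was -10.21 for HSP17.6II (adjusted p = 2.87e-07), -9.98 for HSP17.4 (5.71e-08), -9.89 for HSP17.6A (2.04e-06), -9.82 for AT1G53540 (1.1e-08), -8.55 for AT2G29500 (3.53e-07) and -7.68 for HSP18.2 (3.39e-07). Of these 6, all but HSP18.2 were lower in 35S:HSFA1b HS by the HS contrast itself. Among organelle members it was -11.2 for HSP23.6-MITO (3.02e-07), -9.88 for HSP21 (4.44e-07), -7.64 for AT1G52560 (6.96e-07) and -7.16 for AT5G37670 (6.36e-08). HSP23.6-MITO was lower and AT1G52560 higher in 35S:HSFA1b HS, and neither HSP21 nor AT5G37670 passed there. HSP70B had -6.59 (2.6e-07) and HSA32 had -5.95 (1.1e-08), and neither passed at HS. MEE3 and BGLU47, which fell at NS, had 1.90 (0.0409) and 1.78 (0.0463), and neither passed at HS. The share of the total in the 100 most abundant loci was 22.3 to 23.9% in 35S:HSFA1b HS, against 39.5 to 40.9% in WT HS, and its part in these differences was not tested.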

How the results depend on the processing

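The log2 fold change of HSFA1b stayed between 6.71 and 7.47 and passed in every alternative that tested it, and the 12 largest increases were called in all of them. The counts of DEGs depended more on the setting. Fitting only the 6 columns compared gave 1062 down-regulated genes, and fitting all 12 columns gave 2624 DEGs with 1172 down-regulated. With the column number as a replicate block there were 767 DEGs (643 up-regulated, 124 down-regulated), of which 389 went the same way at HS. Whether the numbers pair columns is not known. A log2 fold change of at least 1 left 581 DEGs (518 and 63), 173 of them in the same direction at HS, and an adjusted p of at most 0.01 left 586 (520 and 66), 275 in the same direction. Cyclic loess scaling left 314 down-regulated genes. Among genes with a WT NS mean below 100 FPKM, which are fewer, 254 were down-regulated and 577 DEGs went the same way at HS. With 35S:HSFA1b NS columns 0 and 1 left out, which leaves fewer samples, there were 212 DEGs (200 and 12), 89 in the same direction at HS. Leaving out each column in turn gave 641 to 2148 DEGs, 543 to 1371 up-regulated, 85 to 777 down-regulated and 344 to 841 in the same direction at HS, against 883 in the fit reported. LHCA4 had a log2 fold change of 0.0125 after quantile scaling (adjusted p = 0.931), and the aquaporin PIP2A, not called in the fit reported, had 0.48 after cyclic loess scaling (adjusted p = 0.0353). The share of up-regulated genes with the heat shock element was 2.68% with the window taken on past the start, against 0.585% of all genes tested. For 2 repeats in place of 3 it was 20.07%, against 16.0% of all genes tested. Apart from the changes that the fewer samples or genes or the stricter thresholds bring by construction, the cause was not tested. No counts were used, so low genes cannot be weighed by depth.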
